A study of Drosophila melanogaster with 9 samples.

Results

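The 3′ untranslated regions (UTRs) examined here were the strong sense sources of small RNAs in the Drosophila melanogaster ovary, 41 features of 35 genes. They were chosen on the abundance in the wild-type (WT) libraries. A 3′ UTR of a protein-coding transcript was a member when its sense abundance averaged at least 30 over the 3 WT libraries and its antisense abundance averaged under 3. Of 57 distinct features past both thresholds, 16 were left out, 7 because they lie near centromeres, on chromosome 4 or on heterochromatic sequence, and 9 because they belong to fok, Amun or the chorion and vitelline membrane genes of the eggshell. The sense table listed 8510 features, of which 4601 were distinct in position, strand and values. All 41 members were among the 298 distinct features with a mean of at least 10 over the 9 libraries, which were tested for differences between groups.

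The study sequenced small RNAs from ovaries of 3 to 5 day old females with germline clones, to ask how loss of the histone acetyltransferase Enok affects piRNA levels. WT females were hs-Flp/+; FRTG13/FRTG13, ovo[D1-18], and the mutants carried FRTG13, enok[1] or FRTG13, enok[2] over FRTG13, ovo[D1-18], with 3 libraries in each of the WT, enok1 and enok2 groups. Both alleles are known to abolish the acetyltransferase activity of Enok. All groups therefore shared the heat-shock Flp recombinase, the dominant female-sterile ovoD1 chromosome and the heat shocks given to larvae. In this system recombination makes germline cells homozygous for the part of the FRTG13 arm beyond the FRT site. The ovoD1 selection acts on the germline, and whether the somatic follicle cells also held mutant clones was not reported. According to the study's methods, RNA came from egg chambers from the growing stages to maturity, without the germarium and the youngest egg chambers. Germline and follicle cells went into the RNA together, so the germline and follicle cell shares of a value cannot be told apart, nor can fewer cells of a type and less RNA per cell. The study's methods call the replicates independent, and the labels do not say from which flies each came, so p-values measure the spread between these libraries.

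PIWI-interacting RNAs (piRNAs) guide PIWI proteins to silence transposons. Besides the dedicated piRNA clusters, some protein-coding mRNAs are cut into piRNAs, mostly from their 3′ UTRs and on the sense strand. These genic piRNAs are made on mitochondria by the endonuclease Zucchini and its partners, and their best known source in the ovary is the 3′ UTR of traffic jam (tj), the transcription factor of somatic gonad cells. Genic sources differ in this from the double-stranded clusters of the germline, which need the HP1 protein Rhino and give piRNAs from both strands.

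The values are abundances that the authors normalized to the microRNAs (miRNAs) of each library, on a linear scale with no further unit. An abundance equal to 1 read lay between 0.27 and 0.49 in the 9 libraries, so that the members together held between 5873 and 9923 read equivalents a library and the lowest member of a library between 48.6 and 71.1. Only 17.4% to 27.9% of low values were whole multiples of that step within 0.01. The step is itself a rounded value whose error grows with the multiple, so the share of whole reads is not known. The members summed to 2408, 2797 and 2763 in the WT libraries, which was 10.7% to 13.1% of the abundance of all distinct sense features. Their identifiers give a dm3 start and no end, so a length was taken only from the annotation of a later assembly, by gene.

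Where the gene had several distinct features, whether 3′ UTR forms or pieces of 1 form, the abundance was usually far higher in 1 of them. Of the 35 member genes, 24 had another distinct feature and 20 had at least 1 feature that was no member. These counts include other pieces of the member's own transcript, as in Sf3b3. Abundances were not divided by length, and annotated 3′ UTRs of 1 gene differ in it, as from 699 to 6385 bases in Myc. Myc, the growth-promoting transcription factor, was the strongest member (NM_001272275, chromosome X, start 3279346, plus strand), and its other 3′ UTR with the same start (NM_080323) averaged 7.51 ± 0.97 (SD, n = 3) against 365 ± 27.2 in WT. The difference between the features, which is the abundance found in the stronger one alone, averaged 358 ± 26.2 for WT, 325 ± 37.5 for enok1 and 359 ± 7.92 for enok2. Nearly all Myc small RNAs were thus counted only in the stronger feature, in every group. In the later annotation all 6385 bases of the Myc 3′ UTR lie within the span of the noncoding gene CR44999 on the same strand, and 0 of them in its exons.

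The same held for Agpat1, which encodes an acyltransferase of phospholipid synthesis (NM_001272565, chromosome X, start 12664655, plus strand). Its stronger feature averaged 109 ± 7.24 in WT and the other feature at that start (NM_132600) averaged 0.16 ± 0.095. For Atf6, a transcription factor of the endoplasmic reticulum stress response (NM_136315, chromosome 2R, start 1041536, plus strand), the weaker feature NM_206023 averaged 2.67 ± 0.092 against 104 ± 3.68. In brat, a translational repressor and tumour suppressor (NM_206004, chromosome 2L, start 19171260, plus strand), the features were closer, with 12.8 ± 1.77 in NM_134302 and 47.5 ± 8.79 in the member. These 4 genes lie on the plus strand, where features with a common start begin at the same stop-codon side.

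On the minus strand the start of an identifier is the lower coordinate, and features with the same start share their distal end. The ribosomal protein genes RpL30 and RpS9 were of this kind, with 36.5 ± 5.29 in the member against 1.26 ± 0.60 for RpL30 (NM_001273621 and NM_165271) and 30.1 ± 2.61 against 0.81 ± 0.27 for RpS9 (NM_168351 and NM_079280). Over the 6 genes with a weaker feature at the same start, that feature held between 0.146% and 27.0% of the member's WT level. The genes ras, which encodes inosine monophosphate dehydrogenase, and eEF1alpha1, a translation elongation factor, each had a pair of members with 1 start and nearly equal values.

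**Figure D1:**
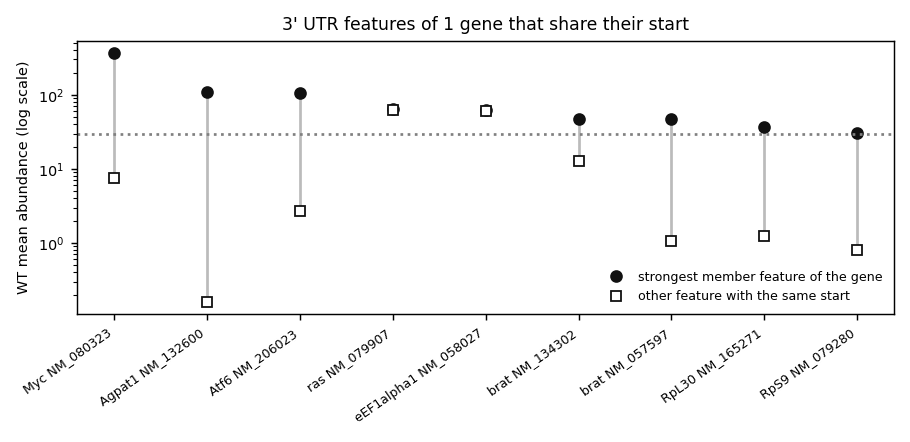
WT mean abundance (log scale) of the strongest member feature of a gene (filled circles) and of another feature with the same start (open squares, named on the axis), with the threshold of 30 dotted. The weaker feature lay far below the member for Agpat1 (0.16 against 109) and Myc (7.51 against 365), while the pairs of ras and eEF1alpha1 coincided.

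Features with different starts showed a similar unevenness. CycG, which encodes cyclin G (NM_001276217, chromosome 3R, start 27422364), averaged 81.1 ± 14.8 in WT, and a feature of the gene whose start lies 2157 bases away averaged 1.19 ± 0.18. The mRNA decapping enzyme gene DCP2 had 46.6 ± 6.22 in its member and 0.92 ± 0.23 in the feature 2266 bases away. In contrast, the 2 members of fmt, 2397 bases apart at their starts, averaged 68.2 ± 11.3 and 59.7 ± 10.8, and the 2 of aqz averaged 45.4 ± 2.68 and 44.2 ± 2.68. The 2 features of tj, whose starts are 132 bases apart, both averaged 55.5 ± 6.74. Members of 1 gene may therefore count the same reads, and the sums, counts and medians over 41 features given here include each of them.

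A level can be compared between genes only per length, and the annotation gave close to 1 length of 3′ UTR for 10 member genes. Among these the WT level per kilobase was highest for Yp1, a yolk protein gene with the shortest 3′ UTR of these genes, at 351. It was 140 for msk, an importin gene, 139 for Lime, a zinc finger gene, 107 for CG9257 and 82.0 for the mitochondrial chaperone gene Hsc70-5. The level was 61.2 for the amino acid transporter gene path, 57.3 for CG8765, 53.4 for disp, which encodes the Hedgehog release protein Dispatched, 37.9 for tj and 22.4 for CG6700. The known piRNA source tj was thus among the lower of these 10 genes per length. The longest annotated 3′ UTR of the member genes had a median of 1292 bases, against 1331 bases for the other tested genes.

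**Figure D2:**
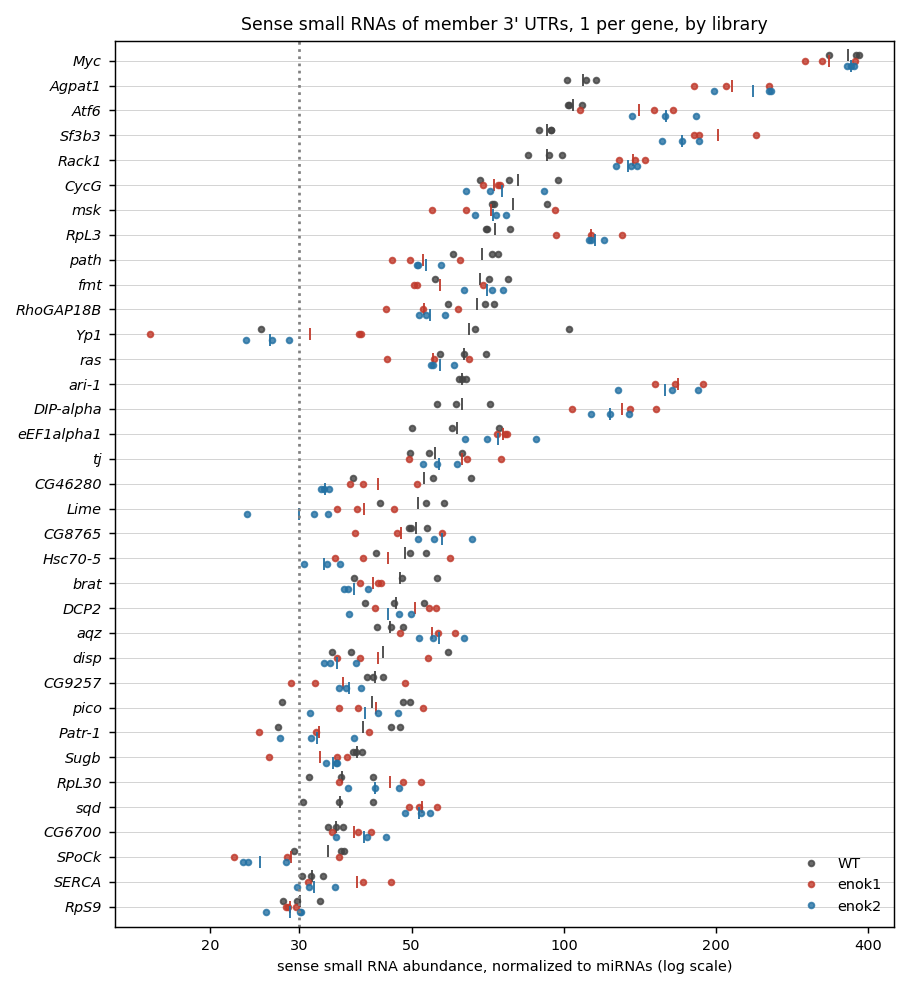
Sense abundance normalized to miRNAs (log scale) in each library for 35 member features, 1 per gene, ordered by their WT mean, with a point for each library, a tick for each group mean and the selection threshold of 30 dotted. For Agpat1, Sf3b3, ari-1 and DIP-alpha all enok1 and enok2 points lie to the right of the WT points, while Myc, CycG and tj overlap between groups.

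The first question was whether the members were lost from mutant germline clones. They were not lost as a group, and their summed abundance was somewhat higher in both mutants. This was not a rise of most members, since 20 of 41 had a log2 fold change above 0 in enok1 and 22 in enok2. The sum was 2679, 3246 and 3332 in the enok1 libraries and 3088, 2878 and 3234 in the enok2 libraries. The group means were 2656 ± 215 for WT, 3086 ± 355 for enok1 (116% of WT) and 3067 ± 179 for enok2 (115.5%, all SD, n = 3). All enok2 libraries lay above all WT libraries, whereas the lowest enok1 library lay within the WT range. With 1 feature per gene, the sum was 2327 ± 194 for WT, 2717 ± 314 for enok1 and 2703 ± 165 for enok2. Without the 6 members whose genes hold a transposable element in a 3′ UTR, which is an alternative added once the values were known, the mutants reached 109% (enok1) and 107% (enok2) of the WT sum.

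In enok1, 7 of 41 members (17.1%) rose and 0 fell against WT (limma on log2(abundance + 1), Benjamini-Hochberg adjusted p under 0.05 over 298 features), where 18.5% of all tested features rose and 6.71% fell. In enok2, 8 members (19.5%) rose and 2 (4.88%) fell, where 17.8% of all tested features rose and 5.7% fell. The share of members that rose was close to the background in both mutants. The median log2 fold change of the members was −0.01 in enok1 and 0.02 in enok2, beside 0.11 and 0.06 over all tested features. With 1 feature per gene it was −0.06 and −0.02 over 35 genes, of which 6 had a member that rose in enok1 and 8 in enok2. Within 1.5-fold of WT were 82.9% of members in enok1 and 78.0% in enok2, against 71.5% and 75.5% of all tested features.

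The WT values that chose the members are also the controls of these comparisons, which both mutants share. A feature that was high in WT by chance enters the list and then tends to look lower in the mutants, and one that rose from below the threshold is missed. Thresholds on the means over all 9 libraries lean the other way, because 6 of these libraries are mutant and a feature high in them is let in. They gave 52 features, 38 of the members and 14 others. Of the 52, 16 (30.8%) were higher in enok1 and 18 (34.6%) in enok2, beside 18.5% and 17.8% of all tested features, 0 and 2 were lower, and the median log2 fold changes were 0.27 and 0.22. Neither choice is neutral, and both sets of values are given as descriptions.

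The scale matters as well, since every value is relative to miRNAs. With libraries rescaled over piRNA clusters, the median log2 fold change of all tested features moved from 0.11 to 0.42 in enok1 and from 0.06 to 0.26 in enok2. The study reported lower piRNA levels from many clusters in both mutants, so the clusters are not an unchanged reference. Their scaling factors were 1.08 to 1.17 in WT, 0.74 to 1.03 in enok1 and 0.93 to 1.04 in enok2. On that scale 19 members were higher and 0 lower in enok1, beside 117 and 12 of all 298 tested features. In enok2, 11 members were higher and 0 lower, beside 80 and 10 of all tested features. With libraries rescaled over the 3′ UTRs themselves, 5 members were higher and 3 lower in enok1, beside 45 and 31 of all tested features. In enok2, 6 were higher and 5 lower, beside 48 and 26. With 1 library left out, between 4 and 7 members were higher in enok1, beside 39 to 55 of all tested features. The range in enok2 was 5 to 6 members, beside 29 to 48. The count in enok1 was 4 without any 1 of the WT libraries or without enok1 library 2 or 3.

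**Figure D3:**
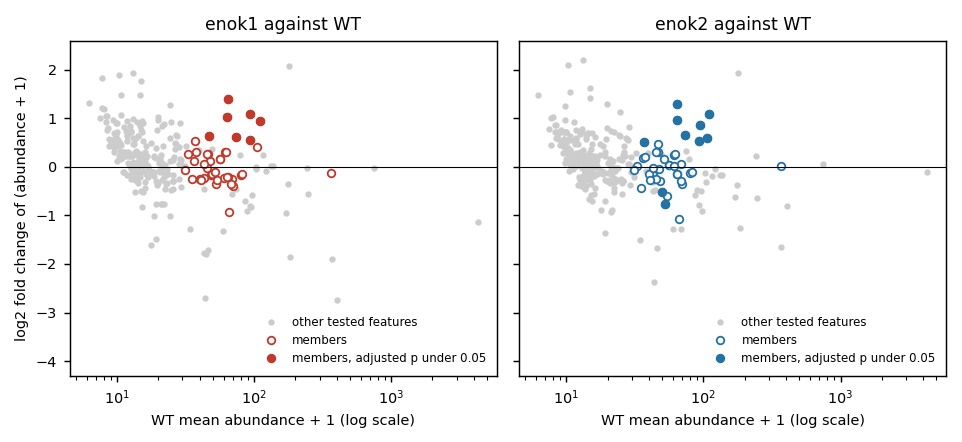
Log2 fold change of (abundance + 1) against the WT mean abundance + 1 (log scale) for all 298 tested features, in enok1 and enok2, with members in colour and called members filled. The 7 called members of enok1 all lie above 0, as do 8 of the 10 of enok2, and no member lies below a WT mean of 30, which the rule set.

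Between 6 and 8 genes carried the rises, and 6 members (14.6%) were higher in both mutants, beside 13.4% of all tested features, while 0 were lower in both, beside 3.36%. They belong to ari-1, Sf3b3, Agpat1, DIP-alpha, RpL3 and Rack1. The largest rise was that of ari-1, which encodes the ubiquitin ligase Ariadne-1 (NM_001258807, chromosome X, start 18024425, minus strand). Its abundance was 64.1, 62.0 and 62.8 in the WT libraries, 152, 188 and 166 in enok1 and 163, 128 and 184 in enok2. Every mutant library was above every WT library, and the log2 fold change was 1.4 (SE 0.18, limma adjusted p 0.00024) in enok1 and 1.30 (SE 0.17, adjusted p 0.00066) in enok2.

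Sf3b3, a subunit of the SF3b complex of the spliceosome (NM_001274294, chromosome 3L, start 827877, minus strand), had 94.5, 89.4 and 94.4 in WT. It had 185, 239 and 181 in enok1 and 172, 156 and 185 in enok2. The groups did not overlap, and the log2 fold change was 1.10 (SE 0.19, limma adjusted p 0.0016) in enok1 and 0.87 (SE 0.14, adjusted p 0.0027) in enok2. This feature is 1 piece of a 3′ UTR annotation that lies to 82.6% in the coding sequence of other transcripts of the gene, and the other listed pieces of that transcript averaged between 1.81 and 6.91 in WT. Exons of the noncoding gene CR45184 cover 2508 of the 2758 bases of that 3′ UTR on the same strand.

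Agpat1 had 101, 111 and 116 in WT, 181, 254 and 209 in enok1 and 254, 198 and 256 in enok2. All mutant libraries lay above the WT libraries, with a log2 fold change of 0.96 (SE 0.20, limma adjusted p 0.0039) in enok1 and 1.10 (SE 0.16, adjusted p 0.0013) in enok2. The gain fell outside the weaker feature at the same start, which averaged 0.30 ± 0.33 in enok1 and 0.31 ± 0.096 in enok2. The abundance in the stronger feature alone averaged 109 ± 7.22 for WT, 214 ± 36.9 for enok1 and 236 ± 33.0 for enok2.

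DIP-alpha, a surface protein of the immunoglobulin superfamily known from neurons (NM_001272289, chromosome X, start 3401278, minus strand), had 61.2, 56.1 and 71.3 in WT. It had 104, 152 and 135 in enok1 and 123, 113 and 134 in enok2. It rose without overlap, by a log2 fold change of 1.03 (SE 0.21, limma adjusted p 0.0034) in enok1 and 0.97 (SE 0.16, adjusted p 0.0027) in enok2. Another feature of the gene, which starts 4088 bases away (NM_001272288), averaged 3.54 ± 1.05 in WT. The 3′ UTR lies within the span of CR44999 on the opposite strand, with 0 bases in its exons. The calls of ari-1, Sf3b3, Agpat1 and DIP-alpha stood in both mutants under all 16 alternatives of the fit, including those without 1 library.

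RpL3, a protein of the large ribosomal subunit (NM_169380, chromosome 3R, start 7050213, plus strand), had 70.6, 78.2 and 70.0 in WT. It had 96.6, 130 and 113 in enok1 and 120, 113 and 112 in enok2. It rose by 0.62 on the log2 scale (SE 0.19, limma adjusted p 0.033) in enok1 and by 0.65 (SE 0.14, adjusted p 0.011) in enok2, and the groups did not overlap. A second piece of the same transcript (start 7049580) rose in enok1 by 0.64 (SE 0.22, adjusted p 0.049) and had a log2 fold change of 0.46 (SE 0.18, adjusted p 0.095) in enok2. Another piece of that transcript (start 7048862), below the member threshold, stayed nearly level. It averaged 27.16 ± 1.955 in WT, 28.58 ± 4.734 in enok1 and 28.45 ± 2.181 in enok2. Of the 1657 annotated 3′ UTR bases of RpL3, 74 lie in the small nucleolar RNA gene Me18S-A425 on the same strand. On the opposite strand, 130 lie in exons of the noncoding gene CR31144. Whether reads counted in these pieces come from the small nucleolar RNA was not tested.

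Rack1, a scaffold protein of the small ribosomal subunit (NM_001273288, chromosome 2L, start 7825629, minus strand), had 93.7, 84.9 and 99.0 in WT. It had 128, 145 and 138 in enok1 and 140, 127 and 136 in enok2. The mutant libraries were all higher, by a log2 fold change of 0.56 (SE 0.18, limma adjusted p 0.039) and 0.53 (SE 0.14, adjusted p 0.028). These smaller rises were less firm. The Rack1 call was lost in 7 of 16 alternatives in enok1 (adjusted p up to 0.13) and in 8 in enok2 (up to 0.17), and that of RpL3 in 7 in enok1 (up to 0.14) and in 1 in enok2 (0.10). Of the 6 fits without 1 library, 1 in enok1 and 0 in enok2 kept the Rack1 call, and the RpL3 call was kept in 1 in enok1, without enok1 library 1, and in 6 in enok2. Of the 3′ UTR bases of RpL3 and Rack1, 53.3% and 52.0% lie in the coding sequence of other transcripts of the same gene.

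**Figure D4:**
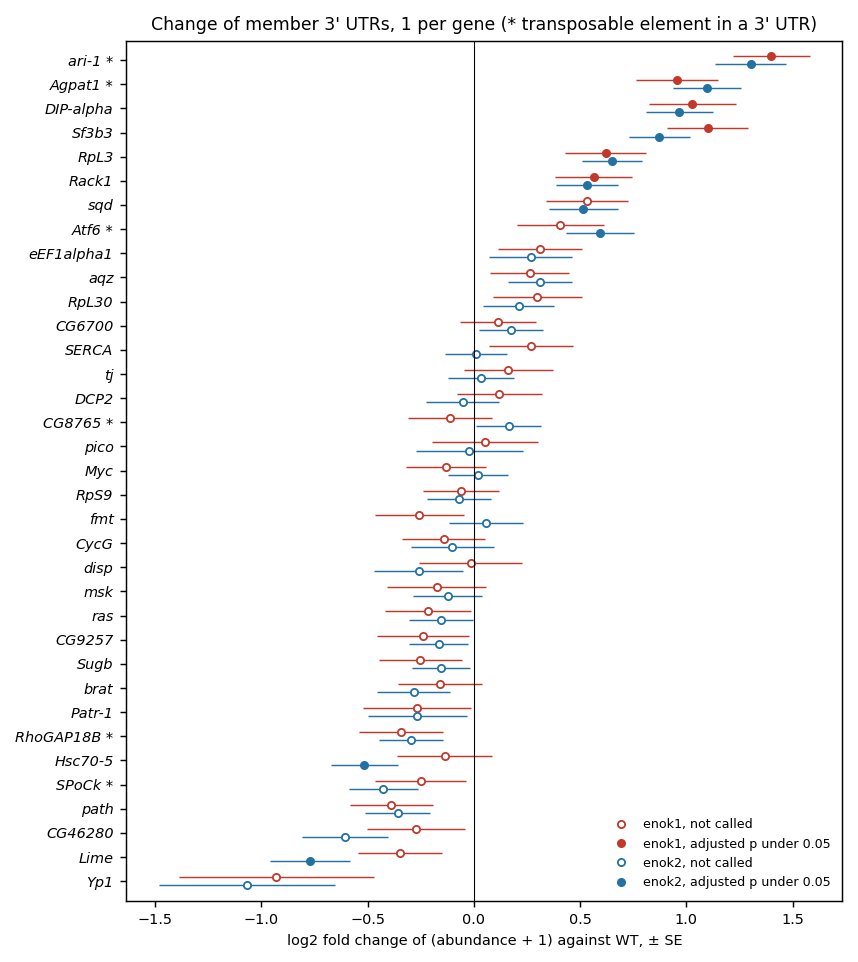
Log2 fold change of (abundance + 1) against WT with its standard error for 35 members, 1 per gene, in enok1 (red) and enok2 (blue), filled where the limma adjusted p was under 0.05. Values range from −1.07 for Yp1 to 1.4 for ari-1, and stars mark the 6 genes with an annotated transposable element in a 3′ UTR.

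Other members were called in enok2 alone. Atf6 had 102, 103 and 109 in WT, 108, 165 and 151 in enok1 and 159, 136 and 182 in enok2. The enok2 libraries were all above WT (log2 fold change 0.59, SE 0.16, limma adjusted p 0.027), while 1 enok1 library lay within the WT range (0.41, SE 0.20, adjusted p 0.18). The RNA-binding protein gene sqd, whose product acts in gurken mRNA localization, had 42.0, 35.9 and 30.5 in WT, 49.4, 56.1 and 51.8 in enok1 and 54.4, 48.6 and 52.2 in enok2. It was higher than WT in every library of both mutants, but passed the threshold only in enok2 (log2 fold change 0.52, adjusted p 0.049, against 0.53 and adjusted p 0.062 in enok1).

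Lime (NM_136685, chromosome 2R, start 5760781, plus strand) had 43.2, 53.5 and 58.1 in WT and 23.6, 32.1 and 34.1 in enok2. The enok2 libraries were all lower (log2 fold change −0.77, SE 0.19, limma adjusted p 0.020), and the enok1 libraries, at 35.5, 39.0 and 46.1, lay partly below WT (−0.35, adjusted p 0.24). Hsc70-5 had 42.4, 53.5 and 49.7 in WT and 34.0, 30.6 and 36.1 in enok2 (log2 fold change −0.52, SE 0.16, adjusted p 0.041). Its enok1 libraries, at 40.2, 35.2 and 59.4, overlapped WT (−0.14, adjusted p 0.69). The calls in enok2 were lost in 5 of 16 alternatives for Lime, 10 for Hsc70-5, 7 for Atf6 and 10 for sqd, and that of the second RpL3 piece in enok1 was lost in 12.

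A call in 1 mutant did not amount to a difference between the mutants. The enok2 libraries were compared with the enok1 libraries directly, a contrast in which the WT values that chose the members take no part. By limma 0 of 41 members were called in either direction, beside 0.0% of all tested features, and at an unadjusted p under 0.05 there were 0 members and 21 of all 298 features. All members (100%) lay within 1.5-fold between the mutants, against 93.3% of all tested features, and their median log2 difference was −0.02. The lowest adjusted p was that of Lime, at 0.68, with a log2 difference of −0.42 (95% confidence interval −0.86 to 0.01). For Atf6 the difference was 0.19 (−0.27 to 0.64).

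The strongest member did not rise with these genes. Myc had 334, 383 and 378 in WT, 301, 324 and 377 in enok1 and 364, 370 and 375 in enok2, and the groups overlapped. Its log2 fold change was −0.13 (95% confidence interval −0.54 to 0.27, limma adjusted p 0.64) in enok1 and 0.02 (−0.30 to 0.34, adjusted p 0.94) in enok2. The transcription factor tj had 49.6, 54.1 and 62.9 in WT, 49.4, 64.2 and 75.01 in enok1 and 61.5, 52.7 and 56.1 in enok2. Its log2 fold change was 0.16 (−0.29 to 0.62) in enok1 and 0.04 (−0.32 to 0.39) in enok2, so a change of about 1.5-fold was not excluded in enok1. The values of CycG ranged from 68.2 to 97.4 in WT, from 69.3 to 74.9 in enok1 and from 64.0 to 91.3 in enok2, with no call in either mutant.

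Several members of intermediate level were lower in all 3 enok2 libraries without passing the test. For path, WT had 60.3, 72.1 and 73.9, enok1 had 45.8, 49.6 and 62.3, and enok2 had 51.4, 51.3 and 57.2 (log2 fold change −0.36 in enok2, limma adjusted p 0.13). RhoGAP18B had 59.1, 69.9 and 72.8 in WT, 44.5, 52.7 and 61.8 in enok1 and 53.3, 51.7 and 58.3 in enok2 (−0.30, adjusted p 0.21). All 3 enok2 libraries lay below all 3 WT libraries for 8 members (19.5%), where 12.1% of all tested features did so, and above them for 11 (26.8%), where 25.8% did. In enok1 the counts were 1 (2.44%, against 9.4%) and 8 (19.5%, against 27.5%). In msk, WT had 72.8, 72.2 and 92.7, enok1 had 54.8, 64.0 and 96.2 and enok2 had 66.7, 73.3 and 76.9. The ranges of msk overlapped, as did those of fmt, at 55.6 to 77.7 in WT, 50.5 to 69.2 in enok1 and 63.6 to 75.8 in enok2.

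The remaining members had WT means between 30.1 and 63.5 and were called in neither mutant. Among them CG46280 had the lowest fold change in enok2, with 38.2, 55.1 and 65.6 in WT and 33.1, 33.5 and 34.3 in enok2 (log2 fold change −0.61, limma adjusted p 0.060). Its enok1 libraries, at 37.7, 40.2 and 51.2, overlapped WT, and its WT values spread more widely than its enok2 values. Sugb had 38.4, 38.8 and 39.8 in WT, 26.1, 35.5 and 37.2 in enok1 and 33.8, 35.4 and 35.6 in enok2. It was the only member whose enok1 libraries were all below WT, by small differences (log2 fold change −0.25, adjusted p 0.41). The stronger aqz feature went the other way in enok2, with 42.7, 48.0 and 45.5 in WT and 55.1, 51.6 and 63.6 in enok2 (0.31, adjusted p 0.19).

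Genes of mRNA control other than Sf3b3 and sqd did not pass the test. For brat, WT had 38.5, 56.1 and 47.8, enok1 had 43.0, 39.5 and 43.4 and enok2 had 37.4, 36.8 and 41.0, with a log2 fold change of −0.16 and −0.28. The decapping activator gene Patr-1 had 27.2, 47.5 and 45.5 in WT, 32.3, 25.0 and 41.3 in enok1 and 27.4, 31.6 and 38.5 in enok2 (−0.27 in both). WT library 1 was the lowest of its group for Patr-1, as it was for pico, at 27.7 against 49.7 and 48.1, and for Yp1. The log2 fold change of DCP2 was 0.12 in enok1 and −0.05 in enok2, and that of ras was −0.21 and −0.15.

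Replicates of the members agreed about as closely as those of other features. The median SD of log2 values within a group, over the members, was 0.17 for WT, 0.25 for enok1 and 0.13 for enok2, against 0.21, 0.24 and 0.18 over all tested features.

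The yolk protein gene Yp1 (NM_078548, chromosome X, start 9949347, plus strand), which is transcribed in follicle cells and fat body, had the lowest fold changes but also the widest spread. It had 25.2, 103 and 66.8 in WT, 15.2, 39.4 and 39.6 in enok1 and 26.5, 28.7 and 23.5 in enok2. WT library 1 lay among the mutant values, and the log2 fold change of −0.93 in enok1 (SE 0.46, limma adjusted p 0.17) and −1.07 in enok2 (SE 0.42, adjusted p 0.10) did not pass the test. Without WT library 1 it did, at −1.49 in enok1 (adjusted p 0.017) and −1.63 in enok2 (adjusted p 0.0015). Without enok1 library 1 or WT library 2 the value in enok1 was −0.49 or −0.50, and without WT library 2 that in enok2 was −0.64. The other genes of late follicle cells varied in the same libraries. The 11 chorion features summed to 6736, 5285 and 3667 in WT, 1549, 2422 and 3289 in enok1 and 4328, 6093 and 3237 in enok2, and the 4 vitelline membrane features to 79.2, 149 and 135, then 51.8, 26.5 and 36.0, and 121, 90.8 and 54.1. Unlike Yp1, the chorion sum was highest in WT library 1, while the vitelline membrane sum was lowest there among WT libraries, as Yp1 was. The other yolk protein genes, at low levels, were also lowest there, with 2.8, 12.77 and 7.52 in WT for Yp2 and 3.2, 8.38 and 7.52 for Yp3. The part of egg chamber stage in the Yp1 values was not tested.

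By function the rises were spread over several groups, which were assigned with the values known and so are given as counts. Of the 7 features of ribosomal and translation genes (RpL3, RpL30, RpS9, Rack1 and eEF1alpha1), 3 rose in enok1 and 2 in enok2, beside 18.5% and 17.8% of all tested features, and 0 fell in either. Of the 3 in enok1, 2 are pieces of 1 RpL3 transcript. Of 5 genes of RNA processing and decay (Sf3b3, sqd, brat, DCP2 and Patr-1), 1 rose in enok1 and 2 in enok2. Of the 5 features of transcription factors (Myc, Atf6, tj and Lime), 0 changed in enok1, and 1 rose and 1 fell in enok2. Among the membrane and surface proteins (path, SERCA, SPoCk, disp and DIP-alpha) only DIP-alpha was called, and it rose in both mutants.

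The list of abundant mRNAs, that is ribosomal proteins and genes such as actin and tubulin, placed these members beside similar genes. Of its 108 genes, 86 had a listed feature, and 22 features of 15 genes were tested. Of these, 3 (13.6%) rose in enok1 and 2 (9.09%) in enok2, all of them members, beside 18.5% and 17.8% of all tested features, and the median log2 fold change was 0.24 and 0.18, beside 0.11 and 0.06 over all tested features. The member eEF1alpha1 had 60.2, 74.4 and 50.1 in WT, 77.3, 73.7 and 76.4 in enok1 and 88.0, 63.9 and 70.4 in enok2, with a log2 fold change of 0.31 (limma adjusted p 0.30) and 0.27 (adjusted p 0.39). RpL30 had a log2 fold change of 0.30 and 0.21 (adjusted p 0.37 and 0.44), and RpS9 one of −0.06 and −0.07 (adjusted p 0.83 and 0.79).

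Genes on lists of ovarian cell types were counted beside all distinct features, of which 41 of 4601 were members. The rule itself had left out the chorion and vitelline membrane genes of late follicle cells. Of 20 follicle cell genes, 11 had a feature and 2, Yp1 and tj, were members, with 3 of the 18 features of the list. The features of this list summed to between 159 and 290 in WT, between 150 and 222 in enok1 and between 170 and 207 in enok2. Of 29 germline and maternal genes, 18 had a feature, and 0 of their 34 features were members. Their sums were between 49.8 and 66.3 in WT, between 88.7 and 99.2 in enok1 and between 73.0 and 90.1 in enok2. Of 10 muscle sheath genes 3 had a feature, and 0 of their 7 features were members. Their sums were between 22.4 and 33.3 over WT, 25.8 and 29.3 over enok1 and 23.3 and 30.0 over enok2. No listed gene with a feature was at 0 in WT. Small RNA abundance is no measure of mRNA, so these counts do not name the cells that the members come from. Of the 35 listed genes of the piRNA pathway, only 11 had a feature, and 0 of their 13 features were members. The highest WT mean among these features was 10.8.

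Transposable elements were annotated in a 3′ UTR of 6 of the 35 member genes (17.1%), against 12.4% of the tested genes that matched the annotation. On the same strand as the gene, the 1360 element covered 647 bases in Agpat1 and 685 bases in ari-1, and INE-1 covered 396 bases in Atf6, 506 in CG8765 and 135 in SPoCk. On the opposite strand, the 412 element covered 1356 of the 1971 bases that the 3′ UTR forms of RhoGAP18B cover together. Of the 5 members with an element on the same strand, 2 rose in enok1 (Agpat1 and ari-1) and 3 in enok2 (also Atf6). Of all 23 tested features with such an element, 7 (30.4%) rose in enok1 and 10 (43.5%) in enok2, with medians of −0.07 and 0.16. CG8765 had a log2 fold change of −0.11 and 0.16, and SPoCk, a calcium pump of the secretory pathway, one of −0.25 and −0.43, neither called in any mutant. Whether reads counted in these features come from other copies of the elements was not tested.

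The antisense strand, which the rule held below 3 in WT, stayed low in the mutants. Antisense made up 0.37% of both strands over the members in WT, 0.31% in enok1 and 0.36% in enok2, against 2.27%, 1.97% and 1.78% over all tested features. In all 9 libraries 22 members had an antisense value of 0, and 38 averaged under 1 in each group. The antisense of Agpat1 averaged 2.83 ± 0.45 for WT, 2.62 ± 0.28 for enok1 and 2.67 ± 0.22 for enok2, while its sense level about doubled. RhoGAP18B was the only member above 3 in a mutant, with 2.43, 2.75 and 3.10 in WT, 3.72, 5.02 and 3.66 in enok1 and 6.01, 4.01 and 4.68 in enok2. All its mutant libraries lay above the WT libraries on the antisense strand, while its sense values overlapped WT in enok1 and did not pass the test in either mutant.

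Members lay on all major arms. There were 7 on 2L, 6 on 2R, 10 on 3L, 9 on 3R and 9 on X. The arm that carries FRTG13 in all groups, 2R, held 14.6% of members and 13.8% of tested features. The position of the FRT site was not used, so which of these features became homozygous in the clones was not determined. Of the 6 members on 2R, 0 were called in enok1 and 3 in enok2, namely Atf6, Lime and Hsc70-5, beside 29.3% and 36.6% of the 41 tested features on that arm. X had 3 of 9 members called in each mutant, beside 25.6% and 26.9% of its 78 tested features.

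The sense threshold of the rule cut through a continuous range. The antisense limit fell in a gap, between 2.83 and 33.5 among the features that met the rest of the rule. Just inside by sense WT mean were RpS9 at 30.1, SERCA, a calcium pump of the endoplasmic reticulum, at 31.8, and SPoCk at 34.1. Just outside were RpL13A at 28.5, Cpsf5 at 28.5 and Psi at 28.3. By antisense mean, Agpat1 at 2.83, RhoGAP18B at 2.76 and Atf6 at 1.26 were the members nearest to the limit of 3, and luna at 33.5 and udd at 71.2 were the features beyond it. In the mutants, 38 members in enok1 and 36 in enok2 were past both thresholds.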

How the data were processed

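Small RNAs of 18 to 30 nt were sequenced from ovary total RNA after blocking of 2S rRNA. According to the study's methods, reads were mapped with the small RNA mode of piPipes to dm3 with no mismatch, using unique mappers, and Trimmomatic is named in the labels. The deposited tables hold, for each strand, the abundance of each 3′ UTR and piRNA cluster as a linear signal that the authors normalized to miRNAs, with 1 column per library. Many low values were not whole multiples of the step of 1 read. Whether this comes from rounding of the step, or from reads shared between positions or between overlapping features, was not tested. Per-library depth is known only from the step of 1 read. Features with the same position, strand and values were counted once. Symbols came from RefSeq genes of Release 6, which matched 8346 of 8510 features (98.1%). Transposable elements, coding overlap and 3′ UTR lengths came from the dm6 annotation, joined by gene symbol, which holds all 35 member genes and 225 tested genes, and no coordinates were converted.

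Groups were compared by limma (version 3.58.1, with R 4.3.3) fitted to log2(abundance + 1), eBayes without trend, with 2 groups a fit, Benjamini-Hochberg adjustment over 298 features and a threshold of 0.05. This scale understates changes of low features. The step was tested on simulated data. Alternatives were a pseudocount of 0.1 or 5, no filter or a mean of at least 30, rescaling over 3′ UTRs or over 140 clusters, all 9 libraries in 1 fit, an intensity trend, each feature's own variance, a replicate block and leaving out each library. Members, gene lists and the rule for named genes were chosen with earlier results of these data known. By that rule, named with values were the 12 members with the highest WT mean, 1 per gene, those called in both mutants, those on a list and those nearest to the thresholds. Others were named outside the rule, with their values known. Among them are those called in enok2 alone, and CG46280, Sugb, aqz, brat, Patr-1 and pico. Sequences are not analysed here.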

Additional observations from a re-analysis of the deposited data

How the results depend on the processing

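Of 480 values of named members under alternatives, 388 kept their direction and their side of the threshold, 67 lost the call and 14 gained one. Another 11, none of them called, changed sign. When rescaled over clusters, Myc became 0.21 and Hsc70-5 0.19 in enok1, and when rescaled over 3′ UTRs, Myc became −0.061 and the features of tj −0.045 and −0.041 in enok2. Higher members, 7 in enok1 and 8 in enok2, were 4 and 4 with no filter on low values, when 4550 features were tested, 19 in enok1 when rescaled over clusters, and 16 and 18 when chosen on the means over all 9 libraries. Lower members, 0 in enok1, were 3 when rescaled over 3′ UTRs and 1 under the replicate block, Yp1 (limma adjusted p 0.0085, against 0.075 in enok2). Lower members, 2 in enok2, were 0 with no filter, 5 when rescaled over 3′ UTRs, 0 over clusters, and 1 each with all 9 libraries in 1 fit, with own variance and under the replicate block. The median log2 fold change of the members became 0.32 in enok1, 0.23 in enok2 and −0.14 between enok2 and enok1 when rescaled over clusters, −0.061 in enok2 when rescaled over 3′ UTRs, and 0.27 and 0.22 when chosen on all 9 libraries. The rule gave 82 members at a WT mean of at least 20 and 18 at 60. The members' sum was 147% and 134% of WT when rescaled over clusters, and in enok2 107% without the members with a transposable element and 108% also without Myc. Over all features, 12 were lower and 117 higher in enok1 when rescaled over clusters (10 and 80 in enok2), and 31 and 45 over 3′ UTRs (26 and 48 in enok2). Apart from what a change of scale, of filter or of the choice of members itself does, the cause was not tested.

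With 1 library left out, lower members ranged from 0 to 1 and higher members from 4 to 7 in enok1, and from 0 to 4 (4 without WT library 1) and from 5 to 6 in enok2. The medians ranged from −0.13 to 0.12 in enok1, from −0.043 to 0.066 in enok2 and from −0.08 to 0.04 between the mutants, the sums from 111% to 124% and from 110% to 119% of WT, and the number of members from 39 to 42. Hsc70-5 ranged from −0.35 to 0.016 in enok1, and in enok2 Myc ranged from −0.043 to 0.057 and the features of tj from −0.041 to 0.13 and from −0.037 to 0.13.

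Same-numbered libraries correlated in their deviations between −0.01 and 0.22, and 11 of 18 correlated best with their own number, so the numbers were not treated as pairs. With 3 libraries a group, changes smaller than the intervals given are not detectable.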
